A study of Mus musculus with 20 samples.

Results

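The genes described here are those of the cell cycle and of DNA replication in mouse liver. They were chosen by name: every probe whose only platform gene symbol began with one of a set of stems (the A, B, D and E cyclins, the Cdk, Cdkn, Cdc, Mcm, E2f, Cenp, Aurk, Bub, Plk and Rrm genes, Top2a, Birc5, Mki67 and Stmn1) was taken, and Cdkn1a was left out. This gave 129 of 23574 probes and, after probes of 1 symbol were averaged, 96 genes among 21557 features tested, of which 11648 had a single gene symbol. By their names, 64 of the 96 were placed in role groups of the division cycle, by which the results are ordered. The other 32 fall in none of these groups. Some of them act in or near the cycle, such as Cdk7, the kinase that activates other Cdks, and others share little more than a stem, such as Cdc42, a small GTPase of cell shape.

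Division runs in phases. D-type cyclins with Cdk4 and Cdk6, and then cyclin E with Cdk2, release E2F transcription factors from the Rb family, and E2F switches on the genes that load the MCM helicase, make deoxynucleotides and copy DNA. Cyclins A and B with Cdk1 then drive mitosis, in which centromere proteins, Aurora and Polo kinases and the Bub checkpoint hold and part the chromosomes until Cdc20 turns on the anaphase promoting complex. In adult liver nearly all hepatocytes rest outside the cycle and re-enter it after injury or resection, while immune cells in the tissue can divide.

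Livers of 20 C57BL/6J mice from the FCG cross, named for its core genotypes, were each hybridised to 1 two-colour array against a common liver pool, 1 mouse per array. XX Sry and XY-Sry mice are gonadal males that carry an autosomal Sry transgene, XX and XY- mice are gonadal females without it, the Y- chromosome lacks Sry, and each of the 4 groups held 5 mice. All 20 mice lost their gonads at 8 weeks of age and lived to 12 weeks, on chow with 4% fat, and were fasted for 12 h before death. Gonadal males and females therefore differ in the transgene and in the gonads carried until 8 weeks, and these cannot be told apart in any comparison here. In the titles the pool is made of 17 mice fed chow, in the design text of equal RNA portions of all samples, and a pool used on every array cancels in comparisons between groups. Values are log2 ratios of liver over pool, so a value of 0 equals the pool and no level of 1 gene can be set against that of another. Within a group, values are given in the animal order 38, 18, 9, 31, 32 for XX Sry, 19, 27, 20, 5, 14 for XY-Sry, 29, 6, 21, 35, 2 for XX and 12, 30, 24, 3, 22 for XY-.

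The library labelled XY- 30 goes against its label. Its log2 ratios of the Y-linked genes Eif2s3y and Kdm5d were -3.90 and -3.16, whereas the other 9 arrays labelled with a Y chromosome lay between 0.57 and 1.34 for Eif2s3y and between 0.14 and 1.37 for Kdm5d. Its Eif2s3x, an X-linked gene, stood at 0.51, against -0.67 to 0.04 on those 9 arrays. It was kept under its label, so that every group with a Y chromosome below includes it, and values without it are given for the sex chromosome comparisons and for member calls that change. On 4 arrays of gonadal females (XX 2, XX 6, XY- 3 and XY- 12) the SD over all features was above 0.3. Member calls that end or appear without these are named. The labelled tissue could not be checked against hepatocyte markers, because a ratio of liver to liver does not show the level of either.

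Across the 20 arrays the member genes varied about as much as other features. Their median SD was 0.163 and their median range 0.662, against 0.158 and 0.613 for all 21557 features. The ranges of 21 members were over 1 on the log2 scale. Ccnb1ip1, known for a role in meiotic crossing over, had the widest range at 3.30, which rested on XX Sry 32 at -2.89, and the cyclin gene Ccnd1 and the Cdk inhibitor gene Cdkn1b followed at 2.25 and 2.04. Cenph, a kinetochore subunit, had the narrowest range at 0.17, followed by Aurkc, the Aurora kinase of germ cells, at 0.23 and Cdk4, the partner of D cyclins, at 0.25. Cenph had 1 probe, whereas Aurkc is a mean of 5 probes with a median r of 0.06 between them. The Aurkc probe of widest SD ran from -0.40 to 0.17.

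The promoters of 4 members described below are printed here, chosen without a fixed rule. Of these, Cenpm and Cdc20 passed the main test for gonadal type and Cdk1 and Ccnb2 did not. Rrm2, Cdc73 and Cdk5rap3, which also passed, are not printed. Background knowledge ties E2F sites to genes of S phase, and CHR elements, often beside CCAAT boxes, to genes of mitosis. RefSeq gives windows from 250 bases before to 50 bases after the start of a gene, on assembly GRCm38.p6, and 80 of the 96 members were matched to at least 1 such window. Capitals mark an E2F site (TTTCCCGC, TTTCGCGC, TTTGCCGC or TTTGGCGC), a CHR element (TTTGAA) or a CCAAT box (CCAAT) on either strand, so that a match on the other strand appears as its reverse complement, and no marked match overlaps another. Each sequence reads 5′ to 3′ on the strand of its gene, which is the minus strand in all 4. Cenpm, at chr15:82244287-82244586, held 1 E2F site and 2 CCAAT boxes. Cdc20, at chr4:118437294-118437593, held 1 CHR element and 2 CCAAT boxes. Cdk1, at chr10:69352863-69353162, held 1 E2F site, 2 CHR elements and 3 CCAAT boxes, and Ccnb2, at chr9:70421505-70421804, held 2 CHR elements and 3 CCAAT boxes.
Cenpm: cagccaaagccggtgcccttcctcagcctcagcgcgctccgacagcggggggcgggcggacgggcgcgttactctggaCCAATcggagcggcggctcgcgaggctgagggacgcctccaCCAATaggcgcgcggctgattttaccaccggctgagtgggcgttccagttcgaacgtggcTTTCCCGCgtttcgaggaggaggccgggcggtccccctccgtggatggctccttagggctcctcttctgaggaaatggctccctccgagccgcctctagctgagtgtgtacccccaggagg
Cdc20: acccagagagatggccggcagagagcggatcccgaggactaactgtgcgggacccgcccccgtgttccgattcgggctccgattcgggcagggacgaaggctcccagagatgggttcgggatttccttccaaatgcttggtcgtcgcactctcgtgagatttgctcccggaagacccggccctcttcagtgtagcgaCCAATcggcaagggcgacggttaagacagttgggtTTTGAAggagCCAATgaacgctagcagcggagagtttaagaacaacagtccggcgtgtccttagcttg
Cdk1: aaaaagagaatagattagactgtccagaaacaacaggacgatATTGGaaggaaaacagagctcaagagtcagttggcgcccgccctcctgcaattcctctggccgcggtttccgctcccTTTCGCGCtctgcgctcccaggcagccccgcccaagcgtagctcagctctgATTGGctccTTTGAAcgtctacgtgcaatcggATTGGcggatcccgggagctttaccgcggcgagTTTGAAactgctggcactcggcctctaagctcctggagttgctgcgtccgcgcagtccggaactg
Ccnb2: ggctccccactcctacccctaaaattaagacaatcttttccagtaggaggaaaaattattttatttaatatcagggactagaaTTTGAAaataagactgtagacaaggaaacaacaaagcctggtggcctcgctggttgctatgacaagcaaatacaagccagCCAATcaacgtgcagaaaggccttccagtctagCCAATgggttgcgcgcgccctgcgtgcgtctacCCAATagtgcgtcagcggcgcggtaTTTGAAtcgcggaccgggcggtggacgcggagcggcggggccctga
Over the members, 14 of 80 genes with a window (17.5%) held an E2F site in any of their windows, against 2.6% of all 27025 genes with a window. All 14 belong to the 64 genes of the role groups, among them Cdc6, Cdc25a, Cdk2 and 5 Mcm genes (Mcm3, Mcm5, Mcm6, Mcm7 and Mcm8). A CHR element was found in 17 of 80 genes (21.2%), against 20.2% of all genes, and a CCAAT box in 50 of 80 (62.5%), against 41.1% of all genes. These are matches of letters in a window, given as a description.

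Gonadal type moved few of these genes. With adjusted p under 0.05 (limma, adjusted over all features), 2 members rose and 3 fell in gonadal males relative to gonadal females, which is 5.21% of the 96 members against 3.75% of all features tested, of which 1.47% rose and 2.28% fell. Rrm2 and Cdc73 rose, and Cenpm, Cdk5rap3 and Cdc20 fell. At an unadjusted p under 0.05 the members split into 3 higher and 17 lower (20.8%), against 17.8% of all features, which split into 9.41% higher and 8.39% lower. The 11648 features with a gene symbol, as all members have, leaned lower: 159 rose and 338 fell (4.27%), and 984 were higher and 1227 lower at an unadjusted p under 0.05 (19.0%). The median difference was -0.01 over the members and 0.01 over all features, and 58 members had a negative difference and 38 a positive one. In none of the 96 members did the 10 gonadal males lie apart from the 10 gonadal females, against 0.343% of all features.

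**Figure D1:**
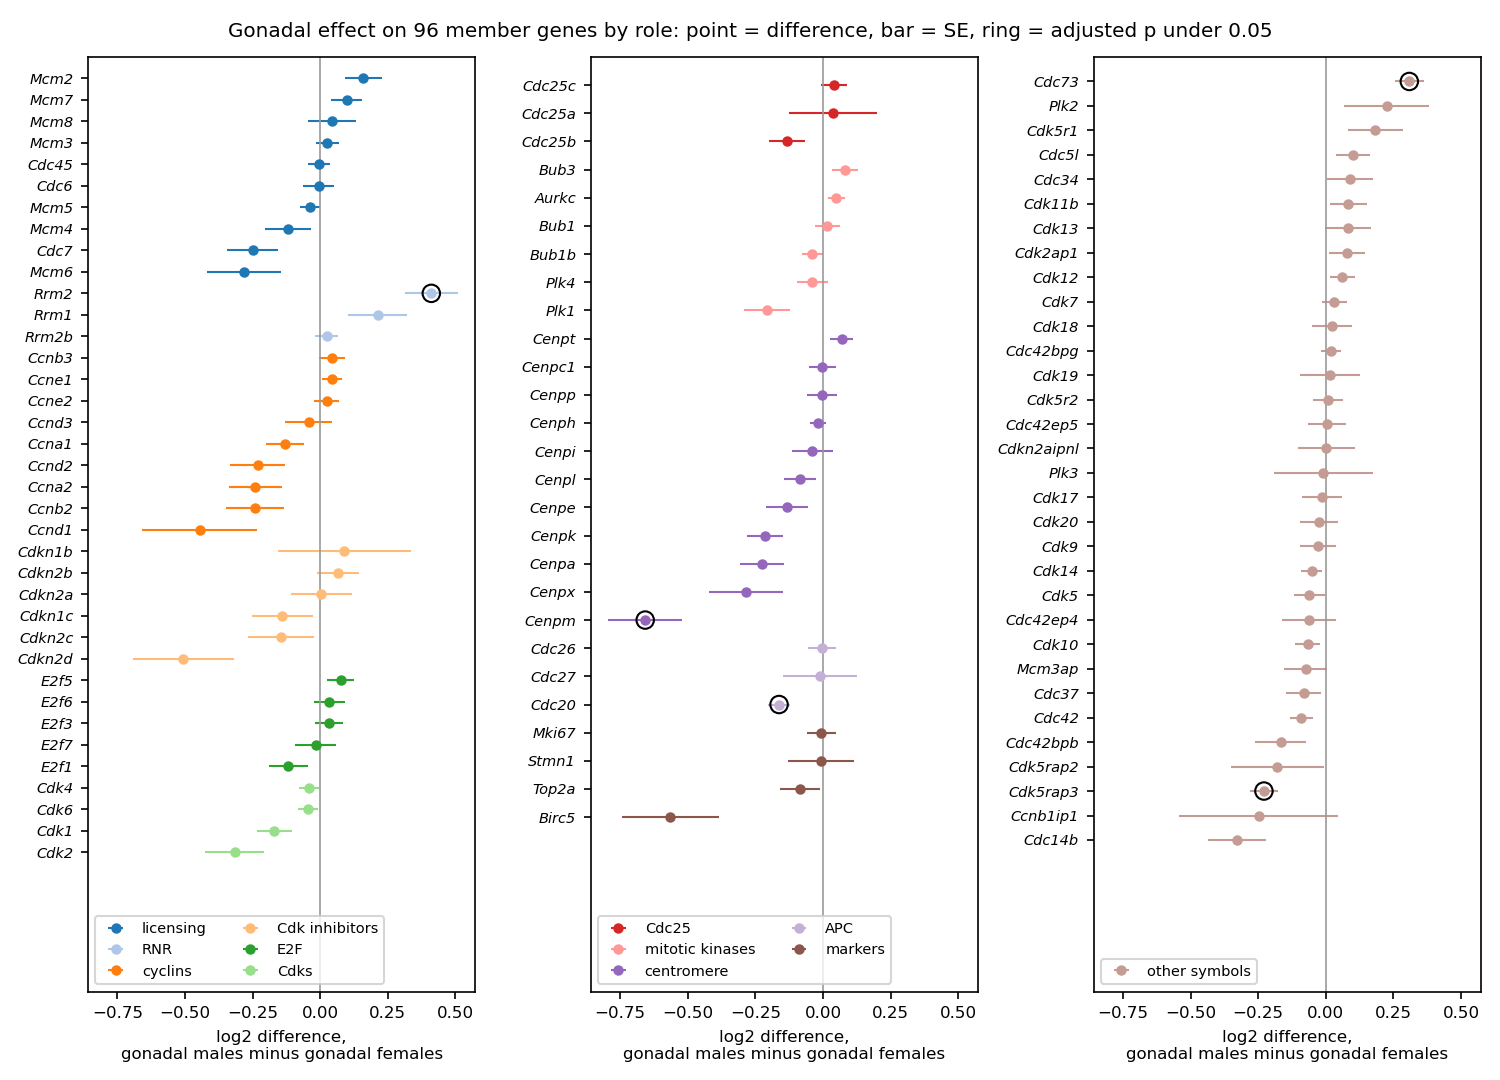
Log2 difference (gonadal males minus gonadal females, horizontal axis) of each of the 96 member genes, grouped by role (RNR, ribonucleotide reductase, and APC, anaphase promoting complex). Points are limma differences, bars their SE, and rings mark the 5 genes with adjusted p under 0.05, from Cenpm at -0.66 to Rrm2 at 0.41.

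The genes that license and fire replication origins held 10 members, the helicase genes Mcm2 to Mcm8 together with Cdc6, Cdc7 and Cdc45, and none of them passed the test (1 was higher and 1 lower at an unadjusted p under 0.05). Their differences ran from -0.28 to 0.16, with 4 positive and 6 negative. Mcm6 had a log2 difference of -0.28 ± 0.14 (SE, adjusted p = 0.286, limma) and Mcm2 one of 0.16 ± 0.07 (adjusted p = 0.219), so that 2 subunits of 1 ring leaned opposite ways without either passing. The remaining subunits of that ring, Mcm3, Mcm4, Mcm5 and Mcm7, lay between -0.12 and 0.10. Mcm6 ranged from -0.71 to 0.24 over the gonadal males and from -0.35 to 0.75 over the gonadal females.

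Ribonucleotide reductase, the enzyme that makes deoxynucleotides, had 3 members, all with a positive difference. Rrm2, its small subunit, stood at -0.15, -0.12, 0.38, 0.24 and 0.32 in XX Sry, at 0.25, -0.03, -0.16, 0.35 and 0.17 in XY-Sry, at -0.15, -0.04, -0.42, -0.47 and -0.64 in XX, and at 0.03, -0.55, -0.26, -0.23 and -0.13 in XY-. In the males 6 of 10 values were above 0.1, whereas the highest female value was 0.03, and the groups overlapped between -0.16 and 0.03. Rrm2 averaged 0.12 ± 0.22 in gonadal males and -0.29 ± 0.22 in gonadal females (SD, n = 10 each), a log2 difference of 0.41 ± 0.10 (SE, adjusted p = 0.0251, limma). The call ended when XX Sry 31, XY-Sry 19 or XX 2 was left out, with adjusted p of up to 0.0552.

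Rrm1, the large subunit, had a log2 difference of 0.21 ± 0.11 (SE, adjusted p = 0.328, limma). Its gonadal males ranged from -0.21 to 0.40 and its gonadal females from -0.44 to 0.38, and both female values above 0.2 came from XX 6 and XY- 12. Without these 2 arrays the difference was 0.33 (adjusted p = 0.0430), and without the 4 arrays of widest spread it was 0.33 (adjusted p = 0.0720). Rrm2b, the subunit induced by p53, had a log2 difference of 0.02 ± 0.04 (adjusted p = 0.851).

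The Rrm2 difference came from 1 of its 2 probes. The first ranged from -0.25 to 0.68 in gonadal males (median 0.21) and from -0.94 to -0.05 in gonadal females (median -0.57), and its log2 difference was 0.72 ± 0.15 (SE, adjusted p = 0.0100 when probes were tested alone, limma). The second ranged from -0.29 to 0.48 in gonadal males (median 0.07) and from -0.37 to 0.29 in gonadal females (median -0.07), with a difference of 0.10 ± 0.11 (adjusted p = 0.741). Over the 20 arrays the 2 probes correlated at r = 0.22, and their positions on the transcript are not given in the sources used here.

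**Figure D2:**
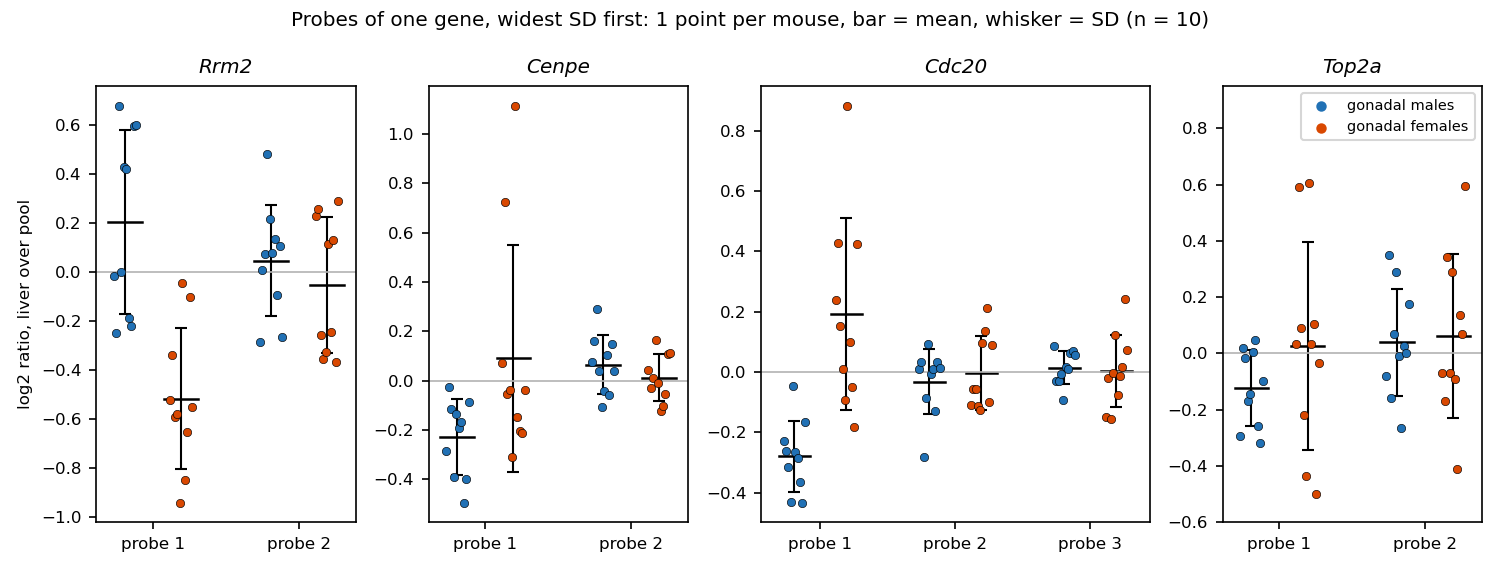
Log2 ratio of liver over pool (vertical axis) for each probe of Rrm2, Cenpe, Cdc20 and Top2a in gonadal males (blue) and gonadal females (orange), 1 point per mouse, with mean (bar) and SD (whisker) of 10. Each gene has 1 probe whose groups lie further apart than those of its other probes, such as Rrm2 with medians of 0.21 and -0.57. In Top2a the male values lie within the female range for both probes.

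Among the cyclins, none of 9 members passed the test after adjustment. At an unadjusted p under 0.05, 4 of 9 (44.4%) were lower in gonadal males, against 8.39% of all features. These were Ccna2, the cyclin of S phase and mitotic entry, Ccnb2, a cyclin of mitosis, and Ccnd1 and Ccnd2, which answer growth signals. Ccna2 stood at -0.08, -0.10, -0.17, -0.22 and -0.19 in XX Sry, at -0.18, -0.09, -0.23, -0.34 and -0.03 in XY-Sry, at -0.01, 0.47, 0.07, -0.01 and -0.16 in XX, and at 0.68, -0.06, -0.03, -0.31 and 0.12 in XY-. All 10 males were below 0, and the 2 highest values came from XX 6 and XY- 12, but the lowest female lay within the male range. The log2 difference of Ccna2 was -0.24 ± 0.10 (SE, adjusted p = 0.198, limma) and that of Ccnb2 was -0.24 ± 0.11 (adjusted p = 0.237). Without XX 6 and XY- 12 the differences were -0.11 (adjusted p = 0.304) for Ccna2 and -0.12 (adjusted p = 0.460) for Ccnb2. Without the 4 arrays of widest spread, which include these 2, they were -0.18 (adjusted p = 0.0643) for Ccna2 and -0.23 (adjusted p = 0.0403) for Ccnb2, so that Ccnb2 passed there.

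Ccnd1 had a log2 difference of -0.45 ± 0.21 (SE, adjusted p = 0.279, limma) and the widest spread of the cyclins. Its values ran from -0.86 to 0.47 in XX Sry, from -0.22 to 0.17 in XY-Sry, from -0.27 to 1.39 in XX and from -0.44 to 0.86 in XY-. Gonadal males and females overlapped between -0.44 and 0.47. The E cyclins, which open S phase, had differences of 0.04 (Ccne1) and 0.02 (Ccne2), and all values of both genes lay between -0.18 and 0.19.

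The cell cycle kinases Cdk1, Cdk2, Cdk4 and Cdk6 all had negative differences and none passed the test. At an unadjusted p under 0.05, 2 of 4 (50%) were lower, against 8.39% of all features. Cdk1, the kinase of mitosis, stood at -0.08, -0.23, -0.07, -0.08 and -0.08 in XX Sry, at -0.15, -0.06, -0.04, -0.05 and 0.06 in XY-Sry, at 0.02, 0.27, -0.03, 0.07 and 0.07 in XX, and at 0.48, -0.16, 0.04, 0.19 and -0.03 in XY-. XX Sry and XX did not overlap, whereas XY-Sry and XY- did. The log2 difference of Cdk1 was -0.17 ± 0.06 (SE, adjusted p = 0.155, limma), and -0.10 (adjusted p = 0.256) without XX 6 and XY- 12 and -0.06 (adjusted p = 0.505) without the 4 arrays of widest spread.

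Cdk2, the partner of cyclins E and A, stood at -0.31, -0.26, -0.45, -0.27 and -0.19 in XX Sry, at 0.06, 0.07, 0.14, -0.18 and 0.15 in XY-Sry, at 0.28, -0.42, 0.48, 0.42 and 0.29 in XX, and at 0.62, -0.29, 0.28, 0.09 and 0.17 in XY-. All XX Sry values were below 0, 4 of 5 XX values were above 0.2, and XX 6 was the exception. Its log2 difference was -0.32 ± 0.11 (SE, adjusted p = 0.116, limma). It passed without XY- 30 (-0.38, adjusted p = 0.0383), without XX 6 and XY- 12 (-0.34, adjusted p = 0.0107) and without the 4 arrays of widest spread (-0.35, adjusted p = 0.0258). Unlike Ccna2 and Cdk1, Cdk2 was low and not high on XX 6.

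The Cdk inhibitors (6 members) hold back the cycle, the E2F factors (5) switch its genes on or off, and the Cdc25 phosphatases (3) release it. These groups had no member past the test, and 1, 0 and 0 members had an unadjusted p under 0.05. The 1 was Cdkn2d, an inhibitor of Cdk4 and Cdk6, which ranged from -0.65 to 0.19 in gonadal males and from -0.49 to 0.95 in gonadal females, with a log2 difference of -0.51 ± 0.19 (SE, adjusted p = 0.144, limma). Without the 4 arrays of widest spread that difference was -0.16 (adjusted p = 0.677). Cdkn1b, which encodes p27, ranged from -0.60 to 0.86 in gonadal males and from -1.18 to 0.73 in gonadal females, with a log2 difference of 0.09 ± 0.25 (adjusted p = 0.917). Cdkn2c, which encodes p18, had a difference of -0.14 ± 0.12 (adjusted p = 0.616). E2f1, an activator of S phase genes, had one of -0.12 ± 0.07 (adjusted p = 0.428). The 6 mitotic kinases and spindle checkpoint genes also had none past the test, and the polo kinase gene Plk1, the 1 with an unadjusted p under 0.05 among them, came nearest at -0.21 ± 0.09 (adjusted p = 0.207). Plk1 was highest on XY- 12 (0.79) and XX 6 (0.24), and every other array lay between -0.22 and 0.01.

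Of the 11 centromere protein genes, 10 had a negative difference, as did 9989 of all 21557 features. Past the test 1 of the 11, Cenpm, fell (9.09%), against 2.28% of all features. Cenpm is a subunit of the inner kinetochore, and it stood at -0.24, -0.35, 0.08, -0.67 and -0.01 in XX Sry, at -0.58, -0.87, -0.68, 0.18 and -0.49 in XY-Sry, at 0.63, 0.97, 0.29, -0.06 and 0.27 in XX, and at 0.19, 0.31, -0.08, 0.26 and 0.17 in XY-. In the males 8 of 10 values were below 0 and in the females 8 of 10 were above 0, and XX Sry 9 (0.08), XX Sry 32 (-0.01) and XY-Sry 5 (0.18) reached into the female range. Cenpm averaged -0.36 ± 0.36 in gonadal males and 0.30 ± 0.31 in gonadal females (SD, n = 10 each), a log2 difference of -0.66 ± 0.14 (SE, adjusted p = 0.0118, limma), or 1.58-fold lower in males. The difference was -0.66 in XX Sry against XX and -0.66 in XY-Sry against XY-. It passed in all 20 fits that each left out 1 array, but without the 4 arrays of widest spread the adjusted p was 0.0543, at a difference of -0.57.

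Cenpa, the histone H3 variant that marks the centromere, had a log2 difference of -0.22 ± 0.08 (SE, adjusted p = 0.133, limma), and Cenpk, another inner kinetochore subunit, one of -0.22 ± 0.07 (adjusted p = 0.0831). Cenpk stood at -0.30, -0.36, -0.11, -0.17 and -0.09 in XX Sry, at 0.16, 0.37, -0.12, 0.12 and 0.11 in XY-Sry, at 0.39, 0.06, 0.07, 0.24 and 0.35 in XX, and at 0.18, 0.33, 0.08, -0.10 and 0.16 in XY-. The XX Sry livers were all below 0, and 4 of 5 livers of XY-Sry, 5 of 5 of XX and 4 of 5 of XY- were above 0.

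Cdc20, the activator of the anaphase promoting complex, stood at -0.04, -0.09, -0.21, -0.17 and -0.02 in XX Sry, at -0.08, -0.09, -0.14, -0.11 and -0.03 in XY-Sry, at -0.01, 0.12, -0.02, -0.04 and -0.03 in XX, and at 0.30, 0.07, 0.06, -0.01 and 0.19 in XY-. Every male value was below 0, and the groups met between -0.04 and -0.02. Its log2 difference was small, -0.16 ± 0.04 (SE, adjusted p = 0.0364, limma). The call ended, with adjusted p of up to 0.0794, when any 1 of XX Sry 18, XX Sry 9, XX Sry 31, XY-Sry 19, XY-Sry 27, XY-Sry 20, XY-Sry 5, XX 6, XX 21, XX 2 or XY- 22 was left out. It also ended without XX 6 and XY- 12 together (adjusted p = 0.0665), without the 4 arrays of widest spread (adjusted p = 0.0548) and with arrays centred on their median.

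As with Rrm2, the 3 probes of Cdc20 differed. The first ranged from -0.43 to -0.05 in gonadal males (median -0.28) and from -0.18 to 0.88 in gonadal females (median 0.13), with a log2 difference of -0.47 ± 0.11 (SE, adjusted p = 0.0206 when probes were tested alone, limma). The other probes of Cdc20 had differences of -0.03 ± 0.05 (adjusted p = 0.844) and 0.01 ± 0.04 (adjusted p = 0.948). Averaging therefore gave Cdc20 a smaller difference than that of its first probe, whose SD over arrays was 3.66 times that of the narrowest.

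A like split, in size and not past the test, was found in Cenpe, a kinesin that moves chromosomes to the spindle equator. In Top2a, the topoisomerase of dividing cells, the male values lay within the female range for both probes. For the first probe of Top2a these ranges were -0.32 to 0.05 and -0.50 to 0.60. The first probe of Cenpe had a log2 difference of -0.32 ± 0.15 (SE, adjusted p = 0.285, limma) and the second one of 0.05 ± 0.05 (adjusted p = 0.687). The probes of Top2a had differences of -0.15 ± 0.12 (adjusted p = 0.610) and -0.02 ± 0.11 (adjusted p = 0.959), and none of these 4 passed. Over the 20 arrays the first probes of Cdc20, Cenpe and Top2a correlated with the mean of the mitotic genes described below at r = 0.91, 0.96 and 0.79 (that of Top2a against the mean without Top2a), and their other probes at r between -0.39 and 0.18. Of the 26 members with several probes, 5 had a median r above 0.5 between their probes (Ccnd3, Cdc34, Cdk10, Cdk4 and Mcm7) and 10 had one below 0, and the median over these genes was 0.15.

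Of the proliferation markers, Birc5, which encodes survivin of the chromosomal passenger complex, had the largest difference and did not pass the test. Birc5 stood at -0.47, -0.32, -0.32, -0.59 and -0.24 in XX Sry, at -0.35, -0.57, -0.57, -0.51 and 0.06 in XY-Sry, at 0.13, 1.01, 0.04, -0.12 and 0.05 in XX, and at 1.29, -0.38, -0.24, 0.10 and -0.11 in XY-. XX Sry lay wholly below XX, 9 of 10 males were below -0.2, and XY-Sry 14 was the exception among them. Birc5 averaged -0.39 ± 0.20 in gonadal males and 0.18 ± 0.54 in gonadal females (SD, n = 10 each), a log2 difference of -0.57 ± 0.18 (SE, adjusted p = 0.0864, limma). It passed without XY- 30 (-0.63, adjusted p = 0.0488) and without XX 6 and XY- 12 (-0.32, adjusted p = 0.0440), and not without the 4 arrays of widest spread (-0.28, adjusted p = 0.121).

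Mki67, the antigen of cycling cells, differed by -0.01 ± 0.05 (SE, adjusted p = 0.978, limma), Stmn1, a microtubule regulator, by -0.01 ± 0.12 (adjusted p = 0.988) and Top2a by -0.09 ± 0.07 (adjusted p = 0.618). All Mki67 values lay between -0.26 and 0.20. Mki67 did not follow Birc5 closely, with r = 0.35 between them over the 20 arrays.

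**Figure D3:**
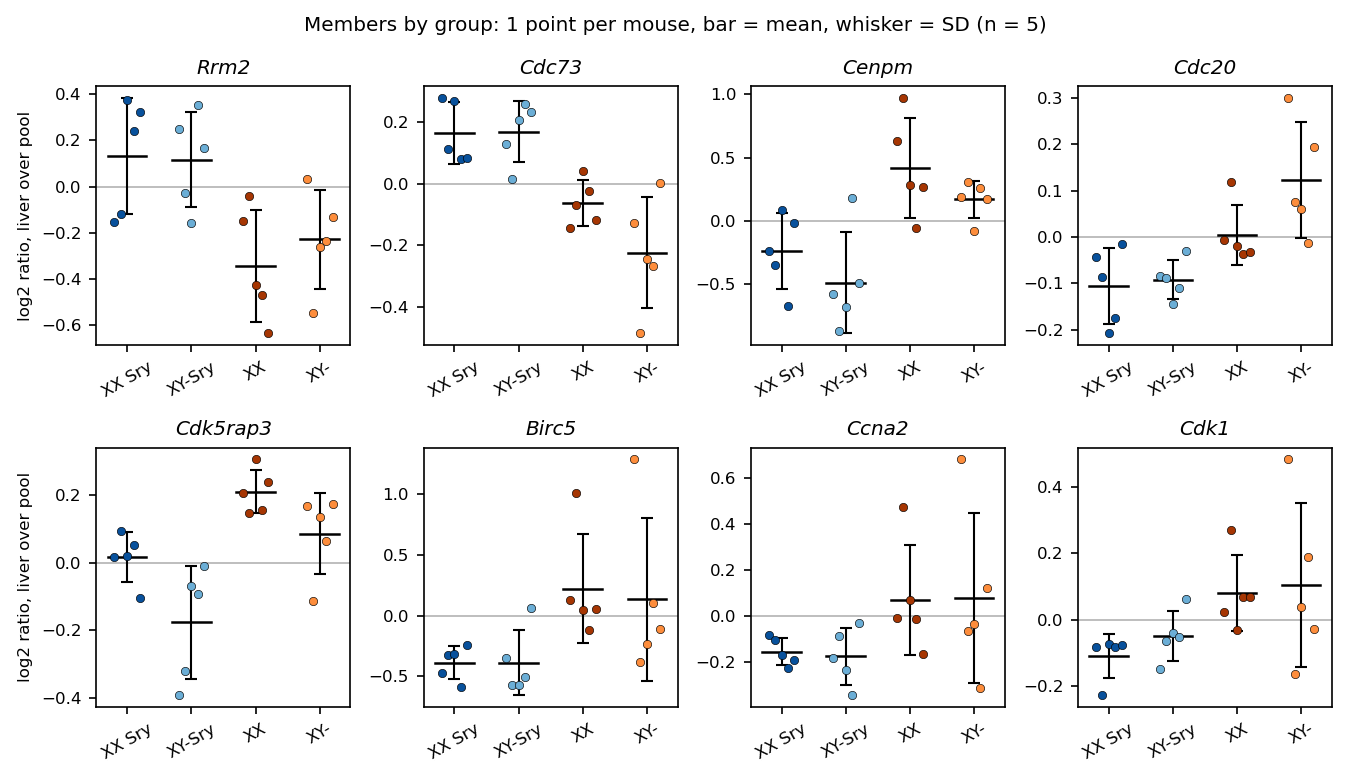
Log2 ratio of liver over pool (vertical axis) of 8 member genes in XX Sry, XY-Sry, XX and XY- livers, 1 point per mouse, with mean (bar) and SD (whisker) of 5. Rrm2 and Cdc73 are higher and Cenpm, Cdc20 and Cdk5rap3 lower in gonadal males, while in Birc5, Ccna2 and Cdk1 the highest values are those of XY- 12 and XX 6, at 1.29 and 1.01 in Birc5.

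The other 2 genes past the test lie outside the role groups. Cdc73, a subunit of the Paf1 complex that travels with RNA polymerase II, stood at 0.28, 0.11, 0.27, 0.08 and 0.08 in XX Sry, at 0.13, 0.01, 0.21, 0.26 and 0.23 in XY-Sry, at -0.14, -0.07, 0.04, -0.02 and -0.12 in XX, and at -0.13, -0.48, -0.24, -0.27 and 0.00 in XY-. All males were above 0 and 8 of 10 females below it, and only XX 21 among the females reached into the male range. Cdc73 averaged 0.17 ± 0.09 in gonadal males and -0.14 ± 0.16 in gonadal females (SD, n = 10 each), a log2 difference of 0.31 ± 0.05 (SE, adjusted p = 0.00438, limma), the smallest adjusted p of the 96 members.

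Cdk5rap3, a partner of the UFM1 protein ligase, stood at 0.02, 0.09, 0.02, 0.05 and -0.10 in XX Sry, at -0.39, -0.32, -0.07, -0.09 and -0.01 in XY-Sry, at 0.21, 0.15, 0.31, 0.16 and 0.24 in XX, and at 0.17, -0.11, 0.14, 0.07 and 0.17 in XY-. XX Sry lay wholly below XX, and XY- 30 at -0.11 was the 1 female below 0. Its log2 difference was -0.23 ± 0.05 (SE, adjusted p = 0.0217, limma), and without the 4 arrays of widest spread the adjusted p was 0.0719. Cdc73, Cdk5rap3 and Cenpm each had a single probe, so that no second probe could be set beside it.

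The sex chromosomes moved none of the 96 members past the test. For the XX complement minus the XY complement, 0 members passed, against 0.0278% of all features (limma), and 2 members (2.08%) had an unadjusted p under 0.05, against 5.06% of all features. These were Cdk5rap3, at 0.16 ± 0.05 (SE, adjusted p = 0.914), and Ccna1, the cyclin A of germ cells, at 0.17 ± 0.07 (adjusted p = 0.914). Ccna1 averaged 0.00 ± 0.18 in XX complement livers and -0.17 ± 0.18 in livers labelled XY complement (SD, n = 10 each), and its mean there was -0.17 ± 0.19 without XY- 30 (SD, n = 9). The 2 X-linked members, Ccnb3 and Cenpi, had differences of 0.03 and 0.01. Within gonadal males and within gonadal females 0 members passed, against 0.00464% and 0% of all features, with 3 and 1 at an unadjusted p under 0.05, against 2.06% and 6.08% of all features. Without XY- 30, 0 members passed in these comparisons. For the XX minus the XY complement 4 members (4.17%) then had an unadjusted p under 0.05, Cdkn2a and Cdk2 joining Cdk5rap3 and Ccna1, against 6.62% of all features, and 0.0603% of all features passed. Within gonadal females 2 members did (2.08%), Ccna1 and Cdkn2a, against 6.03% of all features, and 0.0371% of all features passed.

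Within each sex chromosome complement, 1 member passed the test for XX Sry against XX and 1 for XY-Sry against XY-. With the XX complement Cenpk fell, by a log2 difference of -0.43 ± 0.10 (SE, adjusted p = 0.0482, limma), where 0.645% of all features passed, 0.441% of all lower, and with XY- its difference was 0.00 ± 0.10. The test of the difference between these effects gave -0.43 ± 0.14 for Cenpk, with an unadjusted p of 0.00533 and an adjusted p of 0.9995. With the interaction term 0 members passed, against 0% of all features, and Cenpk was the 1 member (1.04%) with an unadjusted p under 0.05, against 2.58% of all features. The call of Cenpk was kept when XY-Sry 27, XY-Sry 20, XX 6, XX 21, XY- 12, XY- 30 or XY- 3 was left out and ended when any other array was, with adjusted p of up to 0.141. It also ended without the 4 arrays of widest spread (-0.44, adjusted p = 0.0549), where Cdk2 (-0.69, adjusted p = 0.00945) and Cenpa (-0.44, adjusted p = 0.0447) passed.

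With the XY- chromosome Cdc73 rose, by a log2 difference of 0.39 ± 0.08 (SE, adjusted p = 0.0465, limma), where 0.158% of all features passed, 0.0417% of all higher, and its difference with the XX complement was 0.23 ± 0.08 (adjusted p = 0.224). That call was kept when XY-Sry 27, XY- 12 or XY- 22 was left out and ended without any other array, the library labelled XY- 30 among them (adjusted p = 0.120), with adjusted p of up to 0.144. It also ended without the 4 arrays of widest spread (0.41, adjusted p = 0.0947). Counting groups that do not overlap, 1 member was higher and 6 were lower in XX Sry than in XX (7.29%, against 4.38% of all features, 1.54% higher and 2.85% lower). These were Cdc73, higher, and Birc5, Ccna1, Cdk1, Cdk5rap3, Cenpa and Cenpk, lower. In XY-Sry against XY-, Cdc73 was higher and Cdc20 lower without overlap (2.08%, against 1.48% of all features, 0.612% higher and 0.868% lower).

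**Figure D4:**
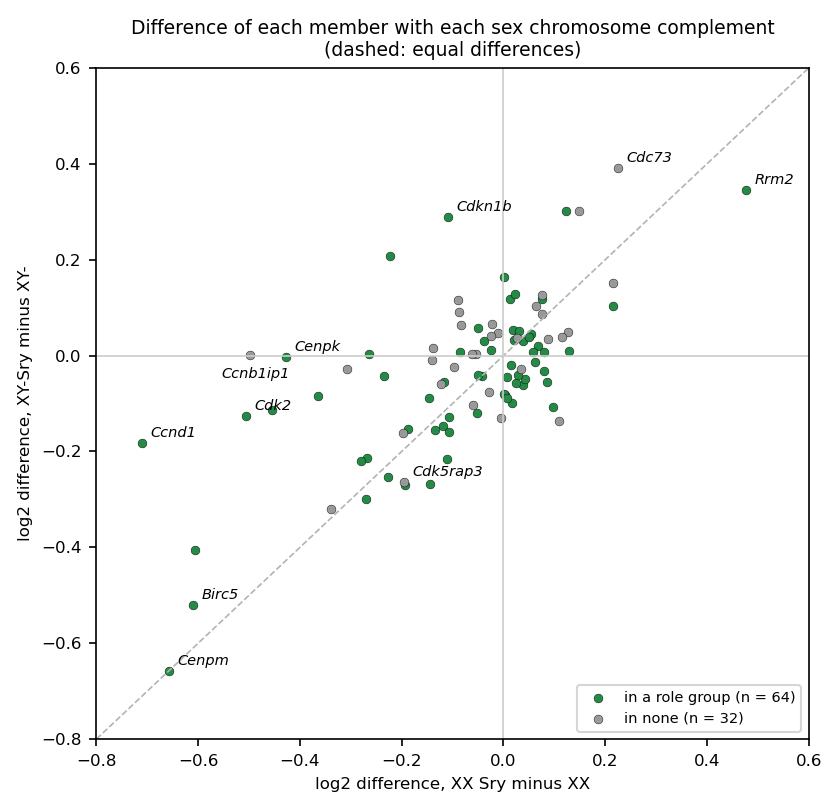
Log2 difference of each member in XX Sry minus XX (horizontal axis) and in XY-Sry minus XY- (vertical axis), with the 64 genes of the role groups in green and the 32 others in grey. Cenpm (-0.66 on both axes) lies on the dashed line of equal differences, and Cenpk (-0.43 and 0.00) lies away from it.

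Over all members, the median r of 4560 pairs of genes over the 20 arrays was 0.01, with single pairs from -0.83 to 0.90. The 6 measured genes of a short list of mitotic markers (Mki67, Top2a, Ccnb2, Ccna2, Cdk1 and Birc5) had a median r of 0.59 over 15 pairs, up to 0.88 for Cdk1 with Birc5 and 0.86 for Ccna2 with Ccnb2. Pairs with Mki67 were lower, between 0.00 and 0.35. These correlations share the arrays and the pool, and the arrays XX 6 and XY- 12 are far from the rest in most of these genes.

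The mean of these 6 genes was 0.57 on XY- 12 and 0.42 on XX 6, while each of the other 18 arrays lay between -0.23 and 0.09. In gonadal males it ran from -0.23 to 0.01 (median -0.15) and in gonadal females from -0.11 to 0.57 (median -0.002). The highest male was XY-Sry 14. Among all features with a gene symbol, the 5 whose values were most like this mean over 20 arrays were Knstrn (r = 0.96), which encodes a kinetochore and spindle protein, Birc5 (0.96), Sirpa (0.95), a receptor of myeloid cells, Slc8a1 (0.95), a sodium and calcium exchanger, and Ccna2 (0.94). Birc5 and Ccna2 are part of the mean. Over the 16 arrays without the 4 of widest spread the values were 0.93 for Knstrn, 0.94 for Birc5, 0.78 for Sirpa, 0.89 for Slc8a1 and 0.80 for Ccna2.

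Some markers of immune cells moved with gonadal type and with these mitotic genes, on the same arrays. Of 15 measured macrophage markers, 6 fell in gonadal males (C1qa, C1qb, C1qc, Cd5l, Clec4f and Csf1r), which is 40%, whereas 2.28% of all features fell. The median difference of the list was -0.82, and 1 marker had a positive difference. The mean of that list ran from -0.81 to 0.38 in gonadal males and from -0.28 to 1.50 in gonadal females. The highest values were those of XY- 12 (1.50), XX 6 (0.52) and XY-Sry 14 (0.38). XY- 12 and XX 6 were also highest for the mitotic genes, where XY-Sry 14 (0.01) was highest only among the males. Of 16 lymphocyte markers 7 fell (Cd2, Cd3d, Cd3g, Cd79b, Cd8a, Il2rb and Klrb1c), from -0.18 ± 0.05 for Cd8a to -1.70 ± 0.16 for Il2rb (SE), and 0 rose. These 7 are 43.8% of the list, whereas 2.28% of all features fell. A further 6 of the 16 had a positive difference, up to 0.18, and the median difference of the list was -0.09. The lymphocyte mean ran from -0.31 to -0.11 in gonadal males and from 0.02 to 0.57 in gonadal females, without overlap, and was highest on XY- 12 and XX 6.

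Of the other marker lists, 1 of 11 erythroid genes (Hba-a1) and 1 of 8 stellate cell and fibroblast genes (Pdgfrb) fell, and none of 9 endothelial, 3 cholangiocyte and 9 hepatocyte genes passed the test, with 1, 0 and 1 at an unadjusted p under 0.05. The part of immune cells in the differences of Birc5, Ccna2, Ccnb2, Cdk1, Cdc20 and Cenpm was not tested. No marker can be said to be at 0 here, because every value is a ratio to a liver pool. In whole liver, fewer cells of a type and less RNA per cell cannot be told apart.

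**Figure D5:**
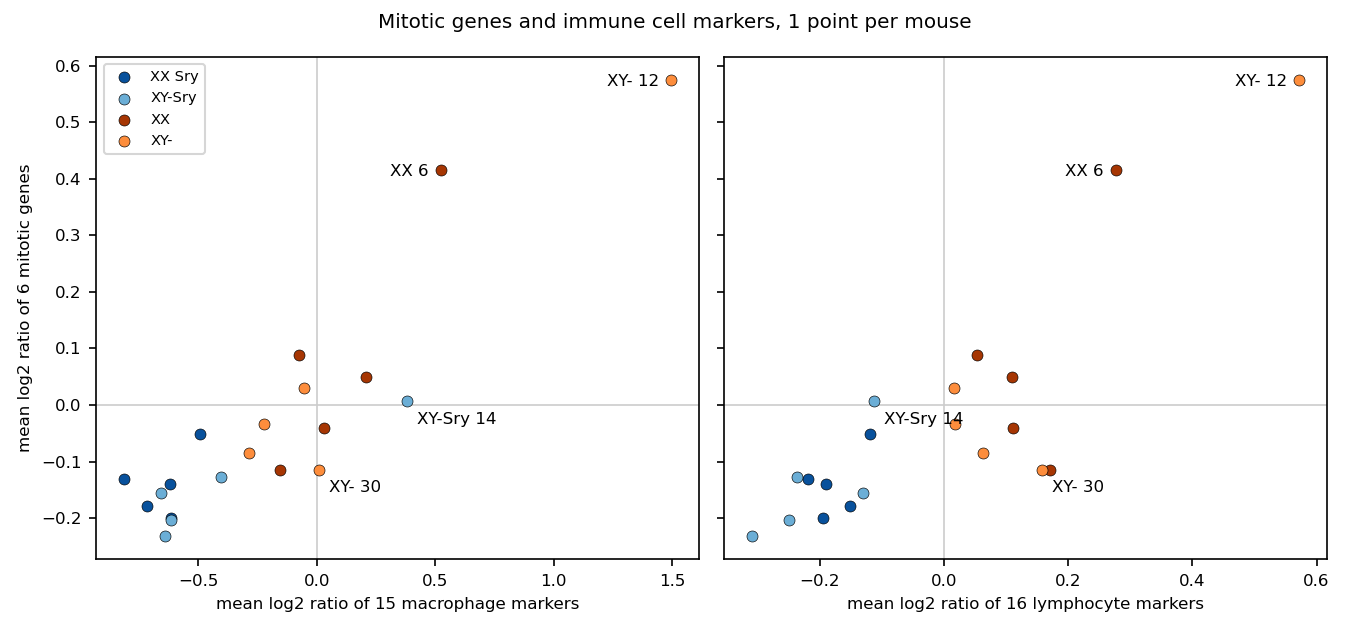
Mean log2 ratio of 6 mitotic genes (vertical axis) against the mean log2 ratio of 15 macrophage markers (left) or 16 lymphocyte markers (right), 1 point per mouse, coloured by group. XY- 12 and XX 6 are highest for the mitotic genes (0.57 and 0.42) and for both marker lists, and the gonadal males lie at the low end of the lymphocyte axis, from -0.31 to -0.11.

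Other genes of the pathway, outside the name rule, were counted in 3 lists. Of 39 further genes of DNA replication, 0 rose and 2 fell (limma), which is 5.13% against 3.75% of all features. At an unadjusted p under 0.05, 4 were higher and 8 lower (30.8%), against 17.8% of all features. Pola2, the second subunit of DNA polymerase alpha, stood at -0.31, -0.16, -0.07, -0.39 and -0.27 in XX Sry, at -0.38, -0.36, -0.05, -0.16 and 0.06 in XY-Sry, at 0.10, 0.42, 0.19, 0.11 and 0.46 in XX, and at 0.50, -0.16, 0.27, 0.13 and 0.11 in XY-. In the males 9 of 10 values were below 0 and in the females 9 of 10 were above it, the exception being XY- 30. Its log2 difference was -0.42 ± 0.08 (SE, adjusted p = 0.00739), and that of Dnmt1, the methyltransferase that copies DNA methylation after replication, was -0.18 ± 0.05 (adjusted p = 0.0393).

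Pcna, the sliding clamp of DNA polymerases, had a log2 difference of 0.31 ± 0.09 (SE, adjusted p = 0.0690, limma), and Tk1, which salvages thymidine, one of -0.81 ± 0.25 (adjusted p = 0.0748). Neither passed, and the 2 genes lay on opposite sides of 0. Tk1 was highest on XX 2 (1.457), XX 6 (1.374) and XY- 3 (1.188), which are among the arrays of widest spread. Its other gonadal females lay between -0.373 and 0.09, and its gonadal males between -1.211 and 0.373. Of 32 further genes of mitosis, 0 passed the test (2 were higher and 5 lower at an unadjusted p under 0.05). The kinesin gene Kif22 came nearest at -0.39 ± 0.11 (adjusted p = 0.0537), followed by Ccnf at 0.28, Melk at -0.12 and Pttg1, which encodes securin, at 0.23. Kif22 was highest on XY- 12 (0.791), XX 6 (0.435), XX 2 (0.371) and XY- 3 (0.277), the arrays of widest spread. Its other gonadal females lay between -0.181 and 0.123, and its gonadal males between -0.469 and 0.099. The last list of 18 genes held the Rb family, brakes and other regulators, among them Skp2, Tfdp1, Myc, Mycn and Jun, which are not brakes. Of these 18 genes 0 passed (1 was higher and 1 lower at an unadjusted p under 0.05). Those with the smallest p were Skp2 (0.29), Rbl1 (-0.24), Rbl2 (0.11) and Gadd45b (0.34). Rbl1 stood at 1.138 on XX 6, and every other array lay between -0.25 and 0.133. Differences without the arrays of widest spread are not given for these lists.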

How the data were processed

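The authors hybridised each liver (Cy5) with a common pool (Cy3), per the labels. The deposited values were taken as log10 ratios of liver over pool, read from the values since neither base nor direction is given in the sources used here: in base 10 Eif2s3y stood at 1.74 ± 0.33 times the pool (SD, 9 XY arrays without XY- 30), against 1.18 in base 2. They were multiplied into log2 ratios. Background correction, dye normalization and signal over background were not analysed here. Values lay within a size of 2 on the log10 scale, where 29 lay at the limit and 2 were missing, none in a member, and array medians ran from -0.0107 to 0.0155. The number of arrays limits the precision. The platform annotation gave 1 symbol for 13665 probes, several for 48 and did not list 9861.

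Differences come from limma 3.58.1 (R 4.3.3), fitted to 21557 features with 4 group means and 1 shared spread (16 residual degrees of freedom), with Benjamini-Hochberg adjustment over all features and a threshold of 0.05. Errors of differences are limma's SE. The fit was tested on simulated data. Members, gene lists and tests were chosen with earlier results of these data known. Named are members past the threshold in any contrast, the 4 smallest p in each direction per main contrast, a fixed list of proliferation genes, the 3 widest and narrowest ranges, and 4 genes per pathway list. Bub1, Cdk17 and Cenpp also meet this rule, each for the interaction, and are not described. Ccnb3, Ccnd2, Ccnd3, Cdc6, Cdc7, Cdc14b, Cdc34, Cdc42, Cdc45, Cdk6, Cdk7, Cdk10, Cdkn2d, Cenpe, Cenpi, Mcm8 and Rrm2b are named outside this rule, after their values were seen. Lists are described by counts, with no set test. Arrays are single animals numbered without pairing. Alternatives were leaving out each array, XY- 30, the 4 widest arrays, or XX 6 and XY- 12 (chosen after seeing the data), array weights, centring, scaling, single probes, values at the limit set to missing, a robust prior and updated symbols.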

Additional observations from a re-analysis of the deposited data

Results flagged for a closer look

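In 14 of 156 groups of 5 mice, over 39 named genes, 1 mouse lay further from the others than the 95% critical value of Dixon's test (0.71 of the group's range), where chance flags about 1 in 20 groups. Some of these genes, Ccnb1ip1 among them, were named for their wide range, so the number cannot be set against chance. XX 6 stood apart in Birc5 (1.01, the other XX mice -0.12 to 0.13), Cdc20 (0.12), Plk1 (0.24) and Cdk2 (-0.42, the others 0.28 to 0.48). XY- 12 stood apart in Birc5 (1.29, the others -0.38 to 0.10) and Plk1 (0.79, the others -0.05 to 0.01). XY-Sry 5 was low in Cdkn2c (-0.61, the others 0.06 to 0.09), Mcm6 (-0.71, the others -0.03 to 0.24) and Cdk2 (-0.18, the others 0.06 to 0.15). XX Sry 32 had a Ccnb1ip1 value of -2.89, the others -0.04 to 0.41. XX Sry 18 was low in Cdk1 (-0.23), XY-Sry 14 high in Cdkn2a (0.32), XY- 3 high in E2f1 (0.46) and XY- 22 low in Mcm3 (-0.19).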

How the results depend on the processing

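The count of 5 members past the test for gonadal type ran from 3 to 7 when each array was left out in turn. It was 3 without XX Sry 31, XY-Sry 19 or XX 2 and 7 without XY- 30. It was 4 with centred arrays, where Cdc20 no longer passed. It was 10 with array weights, 8 without XX 6 and XY- 12, and 6 without the 4 arrays of widest spread, where Cdc20, Cdk5rap3 and Cenpm no longer passed and Ccnb2, Ccnd3, Cdc14b and Cdk2 did. The count of 1 for XX Sry against XX ran from 0 to 2 when each array was left out, and was 2 without the 4 arrays of widest spread (Cdk2 and Cenpa, while Cenpk no longer passed), 3 without XX 6 and XY- 12, 3 with array weights, and 0 with centred arrays or with each probe alone. The count of 1 for XY-Sry against XY- ran from 0 to 1 when each array was left out, and was 0 without the 4 widest arrays, with array weights, with centred arrays and with scaled arrays. The member differences called in the report kept their sign in these fits of whole genes, and of single probes 1 of 3 of Cdc20 had a difference of 0.01, opposite to the -0.16 of their mean. Why the counts moved was not tested. No paired analysis was possible because the animal numbers of the groups all differ. Limits are 5 mice per group, ratios without intensities, and 1 library against its label.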
